A study of Homo sapiens with 4 samples.

Results

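The 33 genes described here encode core proteins of mitosis, and all 33 names were found, once each, among the 58735 genes of the deposited table. They were listed by name, but the list was chosen with earlier results of these data known. The RNA came from SUP-M2 cells, a long-established human line from an ALK-positive anaplastic large cell lymphoma, which is a cancer of mature T cells. The 4 libraries formed 2 groups: 2 from cells with short hairpin RNA against GOLM1, a membrane protein gene of the Golgi apparatus (shGOLM1), and 2 from cells with a scrambled hairpin (shscramble). Although hairpins only reduce an RNA and the sample titles speak of hairpins, the shGOLM1 samples carry a genotype label of knockout; all 4 samples came from the same line with no drug or time course in the labels. Nothing says that replicates were separate cultures or that both shGOLM1 libraries carried the same hairpin, and p-values here therefore reflect library-to-library spread alone, possibly of technical origin.

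Mitosis is driven by the kinase CDK1 bound to cyclin B, which CDC25 phosphatases switch on. Polo and Aurora kinases then build the spindle, the checkpoint proteins delay chromosome separation until every kinetochore is attached, and CDC20 turns on the anaphase-promoting complex (APC/C), which destroys cyclin B. Most of these transcripts rise late in the cell cycle, since the DREAM complex holds their promoters silent in resting cells and MYB-MuvB and FOXM1 activate them before division. In bulk RNA a lower value can mean fewer cells near mitosis or less of the transcript per cell, and these cannot be told apart.

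A pair of short promoter motifs are known for this regulation, the cell cycle genes homology region (CHR), which MuvB binds, and the CCAAT box, which NF-Y binds. RefSeq promoters on GRCh38.p14, from 250 bases before to 50 after each start, were matched for 27 of the 33 members. The CHR core, TTTGAA or its reverse complement TTCAAA, stood in 19 of the 27 members (70.4%) and in 18.2% of the 27305 genes of the table, counting a gene if any of its starts had it. A CCAAT box, CCAAT or ATTGG, stood in 23 of 27 members (85.2%) and in 39.7% of all genes, and 17 of 27 (63.0%) held both against 7.26% of all genes. Of the 132 other mitosis genes described below, 111 were matched. Among these 111, 49.55% held the CHR core, 62.2% a CCAAT box and 27.0% both, so the motifs are not particular to the members. A match is a description of letters, not a binding site. The 250 bases before the start are shown for 6 members picked as examples, all of which hold both motifs. They do not stand for the list: KIF2C and CENPE held neither motif, and CCNB1 held a CCAAT box but no CHR core. CHR cores and CCAAT boxes on either strand are in capitals, and in MKI67 a CHR core and a CCAAT box share bases. The regions are chr10:60778081-60778330 (plus strand) for CDK1, chr15:59104896-59105145 (plus) for CCNB2, chr16:23678639-23678888 (plus) for PLK1, chr2:26785806-26786055 (plus) for CENPA, chr10:92592880-92593129 (plus) for KIF11 and chr10:128126424-128126673 (minus) for MKI67.
CDK1: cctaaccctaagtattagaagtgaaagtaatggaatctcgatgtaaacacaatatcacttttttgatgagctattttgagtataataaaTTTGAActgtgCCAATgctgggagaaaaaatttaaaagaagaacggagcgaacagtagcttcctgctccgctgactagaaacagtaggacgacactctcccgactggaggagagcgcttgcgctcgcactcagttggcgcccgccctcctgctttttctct
CCNB2: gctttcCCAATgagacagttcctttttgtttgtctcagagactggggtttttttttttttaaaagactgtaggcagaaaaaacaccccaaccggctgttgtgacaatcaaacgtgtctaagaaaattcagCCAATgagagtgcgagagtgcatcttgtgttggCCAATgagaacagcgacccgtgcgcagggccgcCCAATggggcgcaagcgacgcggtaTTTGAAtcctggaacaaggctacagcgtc
PLK1: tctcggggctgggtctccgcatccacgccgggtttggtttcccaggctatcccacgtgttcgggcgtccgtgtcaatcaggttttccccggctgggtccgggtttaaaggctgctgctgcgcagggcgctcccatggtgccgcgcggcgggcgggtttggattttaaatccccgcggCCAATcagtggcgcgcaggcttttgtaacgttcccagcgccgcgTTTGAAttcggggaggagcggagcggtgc
CENPA: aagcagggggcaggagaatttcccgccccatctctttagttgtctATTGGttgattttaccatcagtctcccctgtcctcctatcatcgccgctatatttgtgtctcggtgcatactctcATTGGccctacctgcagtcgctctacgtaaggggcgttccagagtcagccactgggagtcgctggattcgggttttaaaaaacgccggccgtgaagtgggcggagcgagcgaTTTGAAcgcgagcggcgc
KIF11: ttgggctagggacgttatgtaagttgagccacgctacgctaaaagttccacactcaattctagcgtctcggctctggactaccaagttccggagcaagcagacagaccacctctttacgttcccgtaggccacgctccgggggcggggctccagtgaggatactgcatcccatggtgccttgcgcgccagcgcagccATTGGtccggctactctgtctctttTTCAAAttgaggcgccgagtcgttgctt
MKI67: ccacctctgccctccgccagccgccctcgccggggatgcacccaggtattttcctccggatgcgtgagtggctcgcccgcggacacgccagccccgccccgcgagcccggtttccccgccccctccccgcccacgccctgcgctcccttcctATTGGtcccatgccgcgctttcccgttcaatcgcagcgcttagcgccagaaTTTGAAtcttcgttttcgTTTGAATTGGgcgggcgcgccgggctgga
In CCNB2, PLK1, KIF11 and MKI67 the nearest CHR core began 28 or 29 bases before the start, in CENPA 18 bases and in CDK1, at the first of its 2 listed starts, 161 bases.

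GOLM1, the targeted gene, was at 69.5 and 69.4 CPM (counts scaled by library total and TMM factor, as CPM) in shGOLM1 replicates 1 and 2, against 211.6 and 213.1 CPM in shscramble replicates 1 and 2. The shGOLM1 values thus nearly matched each other, well under those of shscramble. Even so, GOLM1 did not pass the edgeR quasi-likelihood test over 4 libraries (log2 fold change -1.61, SE 0.27, unadjusted p = 0.00287, adjusted p = 0.42). A gene that does not pass that test can therefore still differ between the groups. Library totals were 30889185 and 27544171 counts in shGOLM1 and 31972153 and 31608073 counts in shscramble. The shGOLM1 libraries differed in composition: mitochondrially encoded genes took 1.95% and 0.456% of counts in shGOLM1 replicates 1 and 2, against 2.38% and 2.24% in shscramble, and ribosomal protein genes 6.57% and 14.7%, against 8.77% and 7.44%. The biological coefficient of variation was 49.0% over the 4 libraries and 9.08% between the shscramble libraries. Of 7 markers of the lymphoma all 7 were detected, with summed levels of 1850 to 4323 CPM in shGOLM1 and 2873 to 2917 CPM in shscramble. They did not move together: TNFRSF8 (CD30) and BATF3 were lower in each shGOLM1 library than in each shscramble library, PRF1 was higher, and the other 4 were neither. TNFRSF8 was at 538 and 88.2 CPM in shGOLM1, against 634 and 614 CPM in shscramble, and PRF1, perforin, at 620 and 144.5 CPM, against 2.91 and 2.71 CPM. Of 5 T cell markers, CD8A was at 0 in every library and CD3E at or near 0. The 5 summed to 312 to 391.5 CPM in shGOLM1 and 184 to 186 CPM in shscramble, nearly all of it CD4. All 4 B cell and all 4 fibroblast markers were under 1 CPM in every library, as were 3 of 4 epithelial and 3 of 4 myeloid markers; the myeloid list summed to 231 to 310 CPM in shGOLM1 and 235 to 242 CPM in shscramble, nearly all of it CSF1R.

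The 33 together held 148228 and 124126 counts in shGOLM1 (0.480% and 0.451% of each library), against 180732 and 190866 counts in shscramble (0.565% and 0.604%). Levels between genes are compared in the authors' FPKM, which divide counts by gene length. CDC20, the activator of the APC/C, ranked first in every library, at 137 and 170 FPKM in shGOLM1 and 185 and 174 FPKM in shscramble. CCNB1, cyclin B1, was at 91.1 and 84.1 FPKM in shGOLM1 and 150 and 143 FPKM in shscramble, second in both shscramble libraries and in shGOLM1 replicate 1 but at rank 5 in shGOLM1 replicate 2. KIF2C, a kinesin that depolymerizes microtubules at centromeres, stood at rank 13 and 4 in shGOLM1 replicates 1 and 2 and at rank 11 in both shscramble libraries.

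**Figure D1:**
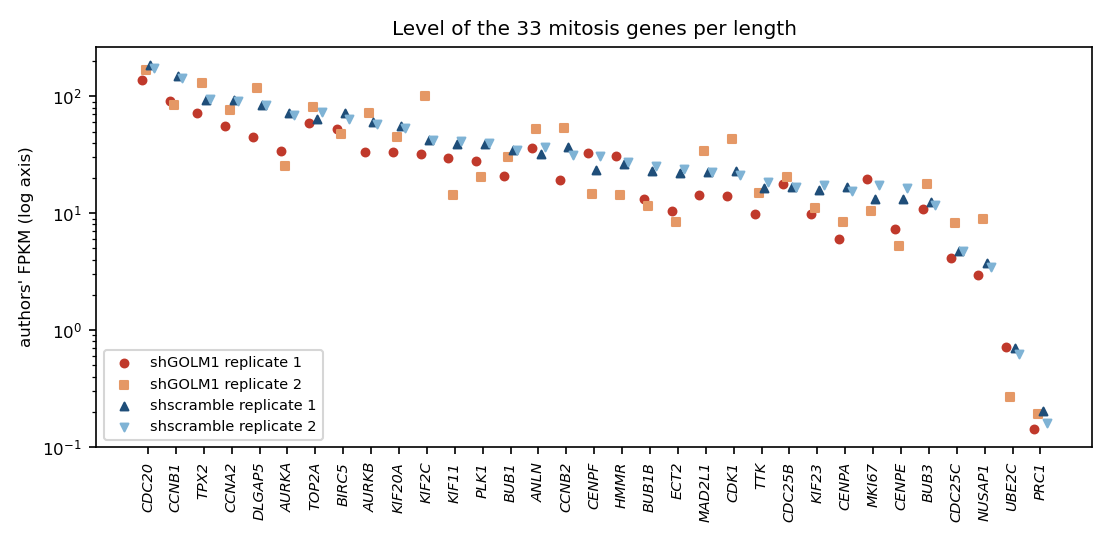
Authors' FPKM (log axis) of the 33 mitosis genes in each library, ordered by the mean of the shscramble libraries; circles and squares are shGOLM1 replicates 1 and 2, triangles are the shscramble libraries. CDC20 is highest in every library, and UBE2C and PRC1 lie below 1 FPKM in all 4.

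At the low end, UBE2C and PRC1 were barely counted. UBE2C, the ubiquitin-conjugating enzyme of the APC/C, had 33 and 8 counts in shGOLM1 and 30 and 27 counts in shscramble. PRC1, which bundles microtubules at the spindle midzone, had 28 and 25 counts in shGOLM1 and 37 and 30 counts in shscramble. They were the only members under 2 CPM in every library. In GENCODE 29, 57.6% of the exonic bases of PRC1 lie under exons of AC068831.7, a protein-coding gene annotated on the same strand, which had 198 and 742 counts in shGOLM1 and 143 and 117 counts in shscramble. The same holds for 62.2% of NUSAP1, a microtubule binder of the spindle, under AC087721.2, which had 0 counts in every library. The sources used here do not say how reads over shared exons were counted, so PRC1 and NUSAP1 are uncertain. UBE2C has no such overlap, and 0.127% of its 50-base words recur in another gene's transcripts. Of the 33 members, 20 overlap no other annotated exon, and 11 others overlap by 0.766% to 12.5% of their bases, the most in PLK1, whose partners lie on the opposite strand.

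Over all 4 libraries, no mitosis gene passed the threshold. EdgeR's quasi-likelihood test with Benjamini-Hochberg adjustment over 14166 genes called 0 of 33 members lower and 0 higher in shGOLM1, beside 0% of all genes tested in either direction, and DESeq2 and limma-voom also called 0 members. At an unadjusted p under 0.05 there were 5 members lower and 0 higher, beside 3.58% of all genes lower and 8.2% higher. In 15 of 33 members each shGOLM1 library was lower than each shscramble library, beside 26.5% of all genes, and in 2, CDC25B and ANLN, each was higher, beside 25.2%. The members' median log2 fold change was -0.20, beside 0.05 over all genes tested. The median depends on which shGOLM1 library is used. It was -0.50 without shGOLM1 replicate 2 and -0.25 without shGOLM1 replicate 1, beside 0.003 and -0.02 over all genes. Without shscramble replicate 1, or without shscramble replicate 2, it was -0.29 each time, beside 0.11 and 0.12 over all genes. In the authors' deposited table, 0 members have an adjusted p under 0.05, and the smallest among them is 0.195. The share of all genes under 0.05 in the authors' test is not given here, so this 0 cannot be set beside it.

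Each shGOLM1 library was therefore also set against the shscramble pair, in an edgeR fit with the shGOLM1 libraries as separate levels. This fit takes its spread from the shscramble pair, assumes that a lone library varies like it, and compares libraries, not conditions. In shGOLM1 replicate 1, 22 of 33 members fell and 0 rose, beside 24.3% of all genes lower and 20.8% higher, with a median log2 fold change of -0.48. In shGOLM1 replicate 2, 13 members fell and 12 rose, beside 35.5% of all genes lower and 33.1% higher, with a median of -0.21. Both comparisons use the same shscramble libraries. The shGOLM1 libraries differed from each other for 25 members: 18 were higher and 7 lower in replicate 2 than in replicate 1, beside 30% and 33.1% of all genes, with a median of 0.44. With library totals in place of TMM factors the median of all genes tested moved to -0.37 in replicate 2, 0.11 in replicate 1 and -0.48 between them. The split of members then became 18 lower and 3 higher in replicate 1, 18 lower and 8 higher in replicate 2, and 11 lower and 9 higher between them. Shares of all genes called with library totals are not given here, so these splits cannot be set beside them. Relative to the median of all genes the members' medians were -0.47 for replicate 1, -0.16 for replicate 2 and 0.48 between them under either scaling. With the wider spread of the 4-library fit, 0 members passed in any of the 3 comparisons.

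**Figure D2:**
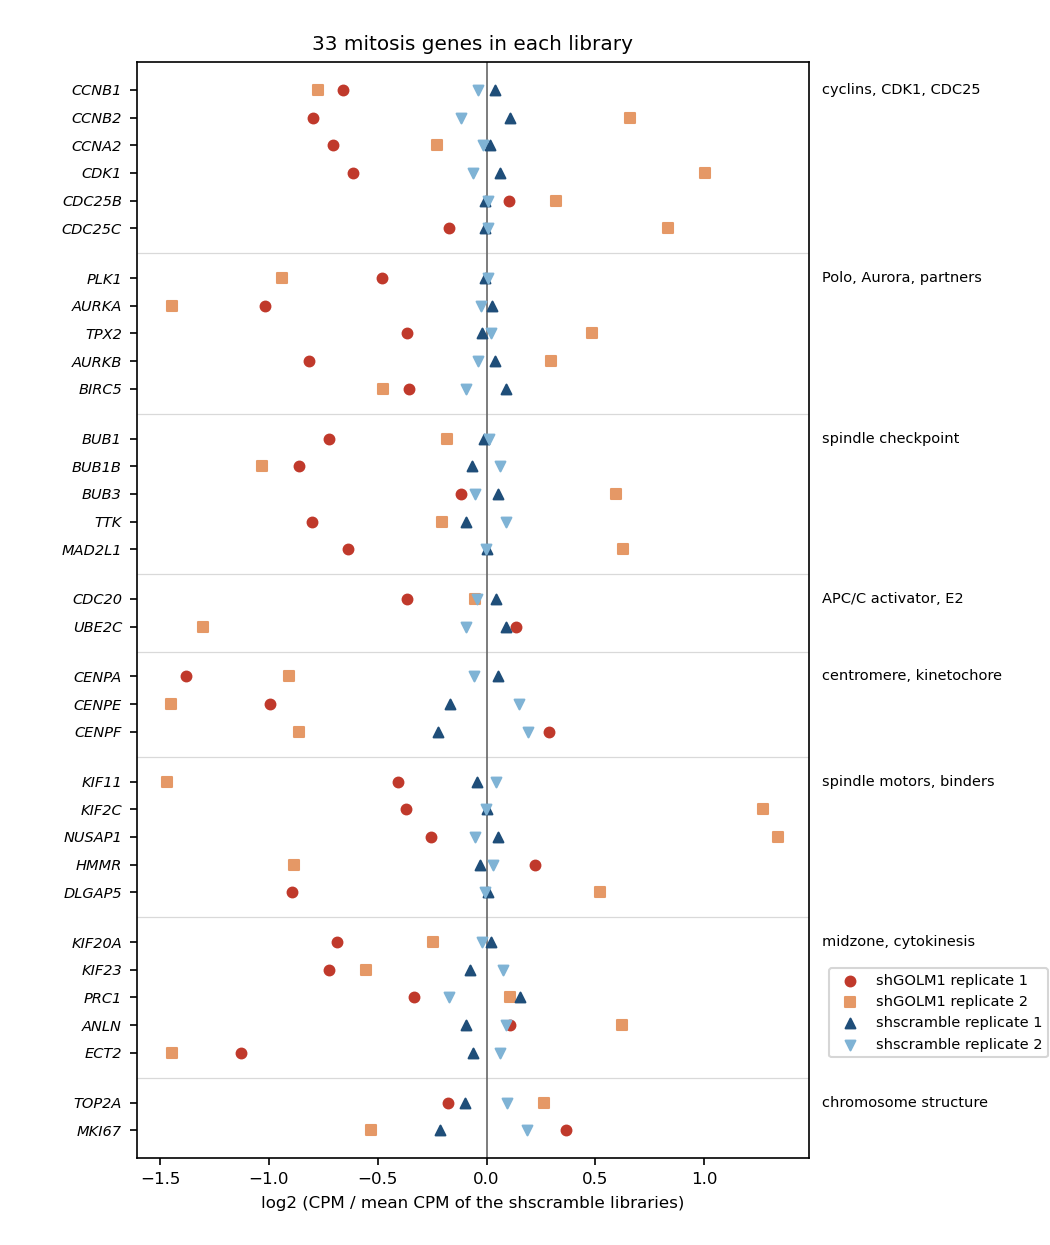
log2 of CPM over the mean CPM of the shscramble libraries, for each of the 33 mitosis genes by role; circles and squares are shGOLM1 replicates 1 and 2, triangles the shscramble libraries, and the vertical line is the shscramble mean. In replicate 1 most points lie left of the line, while replicate 2 is spread to both sides, from -1.47 in KIF11 to 1.34 in NUSAP1.

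Among the 6 cyclins, CDK1 and CDC25 genes, 4 fell and 0 rose in shGOLM1 replicate 1, and 1 fell and 4 rose in replicate 2. Over all genes tested, 24.3% were lower and 20.8% higher in replicate 1, and 35.5% and 33.1% in replicate 2. CCNB1 (chromosome 5) was at 239.5 and 221 CPM in shGOLM1 and 388 and 368 CPM in shscramble. It was lower in both shGOLM1 libraries, on average 1.64-fold (230.4 ± 12.9 against 378 ± 13.8 CPM, SD, n = 2 each), and was the only member of this group to fall in replicate 2 (log2 fold change -0.77, SE 0.11, adjusted p = 4.65e-05; in replicate 1 -0.66, SE 0.11, adjusted p = 0.000475). CCNA2, cyclin A2, which pairs with CDK kinases in S phase and early mitosis, was at 159 and 221 CPM in shGOLM1 and 262 and 257 CPM in shscramble. Both shGOLM1 values lie below the shscramble values, but the fall passed the test in replicate 1 alone (adjusted p = 0.000246 there and 0.0729 in replicate 2).

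CDK1, the kinase itself, went in opposite directions, at 57.0 and 174.8 CPM in shGOLM1 and 90.8 and 83.4 CPM in shscramble. It fell in replicate 1 (log2 fold change -0.61, SE 0.11, adjusted p = 0.000922) and rose in replicate 2 (1.01, SE 0.11, adjusted p = 2.82e-06), and the libraries differed by 1.62 (SE 0.13, adjusted p = 3.73e-07). Cyclin B2 (CCNB2) behaved alike, with log2 fold changes of -0.80 and 0.66 in replicates 1 and 2 and a difference of 1.46 (SE 0.14, adjusted p = 1.84e-06). Ratios of counts within a library do not depend on scaling. The ratio of CDK1 to CCNB1 counts was 0.238 and 0.790 in shGOLM1 replicates 1 and 2, against 0.234 and 0.227 in shscramble. The ratio of CCNB1 to CCNB2 counts was 4.30 and 1.45 in shGOLM1, against 3.71 and 4.13 in shscramble. By both ratios shGOLM1 replicate 1 stood near the shscramble libraries and replicate 2 stood apart. The phosphatase gene CDC25C did not pass in replicate 1 (log2 fold change -0.17) and rose in replicate 2 (0.83, adjusted p = 0.000233), and CDC25B likewise rose in replicate 2 (0.32, adjusted p = 0.0193).

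The Polo and Aurora kinases and their partners all fell in shGOLM1 replicate 1, 5 of 5, beside 24.3% of all genes. In replicate 2, 3 fell and 2 rose, beside 35.5% of all genes lower and 33.1% higher. AURKA (chromosome 20), the Aurora kinase of centrosomes and spindle poles, was at 103 and 76.3 CPM in shGOLM1 and 211 and 204 CPM in shscramble. It was lower in both shGOLM1 libraries, on average 2.32-fold (89.5 ± 18.7 against 208 ± 4.87 CPM, SD, n = 2 each), with a 4-library log2 fold change of -1.21 (SE 0.31, adjusted p = 0.42, unadjusted p = 0.0136). PLK1 (chromosome 16), the Polo-like kinase needed for mitotic entry and spindle assembly, was at 136 and 99.0 CPM in shGOLM1 and 189 and 191 CPM in shscramble. It fell in both comparisons (log2 fold changes of -0.48 and -0.94, adjusted p = 0.00261 and 5.95e-06 in replicates 1 and 2) and was lower in replicate 2 than in replicate 1 (log2 difference -0.46, SE 0.12, adjusted p = 0.00483).

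AURKB (chromosome 17), the Aurora kinase of the chromosomal passenger complex, was at 76.2 and 165 CPM in shGOLM1 and 138 and 131 CPM in shscramble. It lay below both shscramble libraries in replicate 1 and above both in replicate 2, a difference of 1.11 on the log2 scale (SE 0.12, adjusted p = 5.71e-06). With library totals alone the log2 fold change of replicate 2 was -0.03, not a rise. The ratio of AURKA to AURKB counts was 1.35 and 0.463 in shGOLM1, against 1.53 and 1.56 in shscramble. TPX2, which activates Aurora A on the spindle, followed AURKB and not AURKA, with log2 fold changes of -0.37 and 0.49 in replicates 1 and 2. BIRC5 (survivin), a partner of Aurora B in the passenger complex and an inhibitor of apoptosis, had -0.36 and -0.47, and the libraries did not differ past the threshold (adjusted p = 0.459, log2 difference -0.12, SE 0.13).

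Of the 5 spindle checkpoint genes, 4 fell and 0 rose in replicate 1, beside 24.3% and 20.8% of all genes. In replicate 2, 1 fell and 2 rose, beside 35.5% and 33.1%. BUB1B (chromosome 15), which encodes the checkpoint protein BubR1, was at 60.3 and 53.5 CPM in shGOLM1 and 105 and 114 CPM in shscramble. It was 1.92-fold lower on average (56.9 ± 4.79 against 109.5 ± 6.86 CPM, SD, n = 2 each; 4-library adjusted p = 0.42, unadjusted p = 0.0231) and fell in each comparison (log2 fold changes of -0.86 and -1.03). TTK, the checkpoint kinase MPS1, was at 46.2 and 69.7 CPM in shGOLM1 and 75.4 and 85.6 CPM in shscramble. MAD2L1, which holds CDC20 inactive, was at 84.3 and 203 CPM in shGOLM1 and 131.4 and 130.9 CPM in shscramble. TTK fell in replicate 1 and did not pass in replicate 2 (log2 fold changes of -0.80 and -0.21), whereas MAD2L1 fell in replicate 1 and rose in replicate 2 (-0.64 and 0.63). BUB1, the kinase that marks kinetochores for the checkpoint, fell in replicate 1 only by this test (-0.72), and BUB3, which brings BUB1 and BubR1 to kinetochores, rose in replicate 2 (0.59).

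CDC20 was at 287 and 355 CPM in shGOLM1 and 380 and 357 CPM in shscramble, so that replicate 2 nearly met the lower shscramble library. It fell in replicate 1 (log2 fold change -0.36, SE 0.11, adjusted p = 0.0177) and did not pass in replicate 2 (-0.05, SE 0.11). UBE2C, at 0.951 and 0.351 CPM in shGOLM1 and 0.919 and 0.811 CPM in shscramble, passed no comparison, and its depth leaves SEs of 0.65 to 0.87.

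The genes of the centromere and kinetochore held the largest group median of the 4-library fit, -1.12 over 3 members. CENPA (chromosome 2), the histone variant that marks centromeres, was at 12.3 and 17.1 CPM in shGOLM1 and 33.2 and 30.8 CPM in shscramble. CENPE (chromosome 4), a kinesin that moves chromosomes to the spindle equator, was at 70.4 and 51.3 CPM in shGOLM1 and 125 and 156 CPM in shscramble. Both genes were lower in both shGOLM1 libraries, CENPA by 2.18-fold and CENPE by 2.30-fold on average, and both fell in each comparison, but neither passed over 4 libraries (adjusted p = 0.42 each, unadjusted p = 0.0263 and 0.0178). CENPF (chromosome 1), a large kinetochore protein, was at 391 and 176 CPM in shGOLM1 and 274 and 365 CPM in shscramble. It lay above both shscramble libraries in replicate 1 without passing (log2 fold change 0.29, adjusted p = 0.126) and fell in replicate 2 (-0.86, adjusted p = 0.000287).

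Of the 5 spindle motors and binders, 3 fell and 0 rose in replicate 1, beside 24.3% and 20.8% of all genes. In replicate 2, 2 fell and 3 rose, beside 35.5% and 33.1%. KIF11 (chromosome 10), the kinesin Eg5 that pushes spindle poles apart, was at 149 and 71.3 CPM in shGOLM1 and 191 and 203 CPM in shscramble. It fell in both comparisons, more in replicate 2 (log2 fold changes of -0.41 and -1.47, difference -1.06, SE 0.12, adjusted p = 9.07e-06). KIF2C (chromosome 1) was at 120.5 and 376 CPM in shGOLM1 and 156.1 and 155.7 CPM in shscramble. It fell in replicate 1 and rose in replicate 2 (-0.37 and 1.27), the largest difference among the members, 1.64 (SE 0.12, adjusted p = 2.1e-07). NUSAP1 was at 8.73 and 26.3 CPM in shGOLM1 and 10.8 and 10.04 CPM in shscramble, and it rose in replicate 2 (1.34, adjusted p = 1.01e-05). DLGAP5, which stabilizes spindle fibres at kinetochores, had -0.89 and 0.52, and HMMR, a spindle pole protein, had 0.22 (not past the threshold) and -0.88 in replicates 1 and 2.

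Of the 5 midzone and cytokinesis genes, 3 fell and 0 rose in replicate 1, beside 24.3% and 20.8% of all genes. In replicate 2, 2 fell and 1 rose, beside 35.5% and 33.1%. ECT2 (chromosome 3), the exchange factor that activates RhoA at the cleavage furrow, was at 58.7 and 47.1 CPM in shGOLM1 and 123 and 134 CPM in shscramble. It had the smallest p of all members over 4 libraries (log2 fold change -1.28, SE 0.29, unadjusted p = 0.00951, adjusted p = 0.42), and was 2.43-fold lower on average (52.9 ± 8.20 against 128 ± 7.83 CPM, SD, n = 2 each). KIF23, a kinesin of the midzone complex that recruits ECT2, was at 66.9 and 75.4 CPM in shGOLM1 and 105 and 116 CPM in shscramble. It fell in both comparisons (log2 fold changes of -0.72 and -0.55). ANLN, anillin, a scaffold of the contractile ring, was at 225 and 322 CPM in shGOLM1 and 195 and 222 CPM in shscramble. It did not pass in replicate 1 (0.11) and rose in replicate 2 (0.63, adjusted p = 0.000283). KIF20A, a midzone kinesin, fell in replicate 1 (-0.69) and did not pass in replicate 2 (-0.25, adjusted p = 0.0532).

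The commonly used proliferation marker MKI67 (Ki-67, chromosome 10), which coats mitotic chromosomes, was at 256 and 137.5 CPM in shGOLM1 and 171 and 226 CPM in shscramble. The shGOLM1 libraries lay on either side of the shscramble libraries, and the 4-library log2 fold change was -0.01 (SE 0.42). Against the shscramble pair MKI67 did not pass in replicate 1 (log2 fold change 0.37, adjusted p = 0.0512). It fell in replicate 2 (-0.53, adjusted p = 0.00677). TOP2A (chromosome 17), the topoisomerase that untangles chromosomes, was at 394 and 535 CPM in shGOLM1 and 416 and 476 CPM in shscramble, and passed against the shscramble pair in neither library. The libraries differed in both genes, in opposite directions, by -0.90 for MKI67 (SE 0.17, adjusted p = 0.000469) and 0.44 for TOP2A (SE 0.14, adjusted p = 0.0134).

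Beyond these members, 132 other mitosis genes were listed and all 132 were tested. In shGOLM1 replicate 1, 90 fell (68.2%, beside 24.3% of all genes) and 5 rose (3.79%, beside 20.8%), with a median of -0.53. In replicate 2, 73 fell (55.3%, beside 35.5%) and 30 rose (22.7%, beside 33.1%), with a median of -0.46. Between the libraries 53 were higher (40.2%, beside 30% of all genes) and 46 lower (34.9%, beside 33.1%) in replicate 2, with a median of 0.06. Over 4 libraries 0 passed in edgeR, and 12 were lower and 0 higher at an unadjusted p under 0.05, beside 3.58% and 8.2% of all genes. Each shGOLM1 library was lower than each shscramble library for 70 and higher for 4, beside 26.5% and 25.2% of all genes. NCAPH, a condensin subunit, was at 72.3 and 59.2 CPM in shGOLM1 and 154 and 149 CPM in shscramble, SPC25, of the NDC80 complex, at 16.9 and 16.0 CPM against 40.0 and 35.7 CPM, and E2F4, the E2F subunit of DREAM, at 79.0 and 75.6 CPM against 156 and 157 CPM. These had the smallest p among the lower genes (0.0107, 0.0130 and 0.0155 unadjusted, adjusted p = 0.42 each). The smallest among the higher genes were CIT, citron kinase of the cleavage furrow, at 85.2 and 86.9 CPM in shGOLM1 and 51.6 and 61.3 CPM in shscramble, RBL2, the pocket protein p130 of DREAM, at 40.4 and 67.6 CPM against 27.9 and 36.8 CPM, and CENPT at 20.3 and 41.2 CPM against 17.8 and 18.9 CPM, none of which passed (adjusted p of 0.462 to 0.536). Of the 41 DNA replication genes set beside them, 32 fell and 0 rose in replicate 1 (78.0% and 0%, beside 24.3% and 20.8% of all genes; median -0.56). In replicate 2, 29 fell and 3 rose (70.7% and 7.32%, beside 35.5% and 33.1%; median -0.77). CDKN1A, which encodes the CDK inhibitor p21, was at 401 and 1247 CPM in shGOLM1 and 103 and 97.9 CPM in shscramble. It did not pass over 4 libraries in edgeR (log2 fold change 3.04, SE 0.66, unadjusted p = 0.00793, adjusted p = 0.42). A link between CDKN1A and the other genes was not tested.

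**Figure D3:**
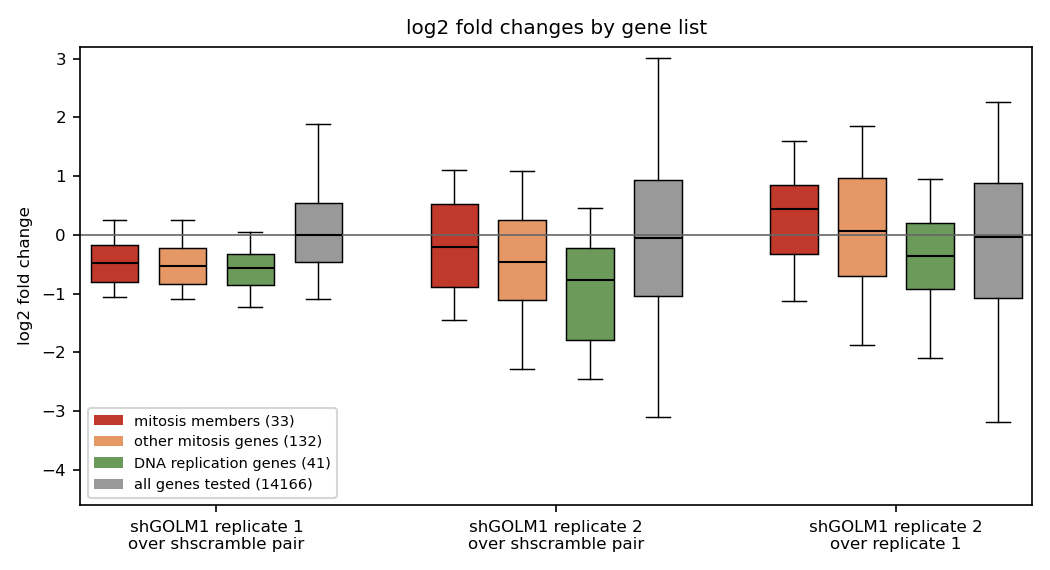
log2 fold changes in 3 comparisons for the 33 mitosis members, 132 other mitosis genes, 41 DNA replication genes and 14166 genes tested; boxes span the quartiles, lines are medians and whiskers reach the 5th and 95th percentiles. The members' median is -0.48 in shGOLM1 replicate 1, -0.21 in replicate 2 and 0.44 between the shGOLM1 libraries.

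Gene length moved with these comparisons over all tested protein-coding genes. Between the shGOLM1 libraries (replicate 2 over replicate 1), the median log2 fold change was 0.61 in the 927 genes of up to 2000 exonic bases and -0.50 in the 783 genes over 12000 bases. Against the shscramble pair the same classes had -0.45 and 0.42 in replicate 1, and 0.20 and -0.11 in replicate 2. The longest members, MKI67 (12807 bases), CENPF (11690 bases) and CENPE (9444 bases), were all lower in replicate 2 than in replicate 1. BUB3 (8300 bases) and MAD2L1 (5748 bases) were higher, and HMMR (3936 bases) was lower, which is against the order of length. The median log2 fold change of replicate 2 over replicate 1 was 0.44 in the 11 members over 5000 bases and 0.46 in the 22 shorter members. Taken relative to the median of its length class, the members' median was -0.35 in replicate 1 with 26 of 33 below 0, -0.06 in replicate 2 with 17 below, and 0.35 between the libraries with 20 above. The part of length in single members' values was not tested further.

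**Figure D4:**
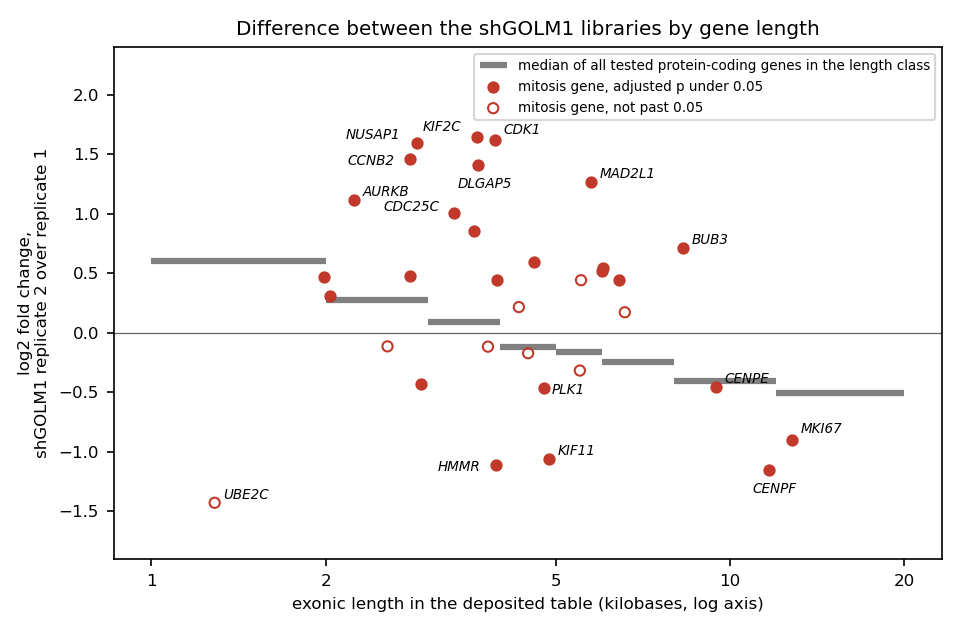
log2 fold change of shGOLM1 replicate 2 over replicate 1 against exonic length (kilobases, log axis) for the 33 mitosis genes; filled points passed an adjusted p of 0.05 and grey bars are medians of all tested protein-coding genes by length class, drawn from 1 to 20 kilobases. The grey bars fall with length from 0.61 to -0.50, and members of similar length, such as CDK1 (1.62) and HMMR (-1.11), lie far apart.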

How the data were processed

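RNA-seq of 4 SUP-M2 libraries (shGOLM1 and shscramble, 2 each) was deposited as 1 table. Per the file headers, it holds the authors' counts per gene and library, their FPKM, their size-factor-scaled group means (a signal, not used for any result), and their log2 fold changes and p-values. The FPKM divide counts by the listed length and by a library total that is not the sum of the counts. Each of the 58735 rows has an ID, start and end found in GENCODE 29 (GRCh38); 0 rows have mouse IDs, although the submitters' processing notes list GRCm38 and mm10. The sources used here do not name the aligner, counting tool or strand setting. The library totals of 27544171 to 31972153 counts limit members of a few counts to wide errors.

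From the deposited counts, edgeR 4.0.16 (R 4.3.3; TMM scaling, filterByExpr, quasi-likelihood test, Benjamini-Hochberg adjustment over 14166 genes, threshold 0.05) compared the groups over 4 libraries, and in a second fit each shGOLM1 library with the shscramble pair and the shGOLM1 libraries with each other. CPM are over TMM-scaled totals. DESeq2 1.42.0, limma 3.58.1 (voom), other scalings and filters, a replicate block and each library left out were alternatives. The fits were also run on simulated data with the same spread in every library. Such data cannot test whether a lone shGOLM1 library varies like the shscramble pair. Motifs were searched on both strands of RefSeq promoters, with overlaps allowed. Proteins were not used here. Plots were drawn with matplotlib 3.10.9.

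Values in every library are given for CCNB1, CDK1, PLK1, AURKA, AURKB, MKI67 and TOP2A, for the 2 members of each role group with the smallest p over 4 libraries and the 1 that differed most between the shGOLM1 libraries, all with a mean of at least 1 CPM, for all members of role groups of 3 or fewer, and for up to 3 other mitosis genes in each direction. PRC1 counts and the log2 fold changes of further members were added after their values were seen. The members and lists were chosen with earlier results of these data known.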

Additional observations from a re-analysis of the deposited data

How the results depend on the processing

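With each library left out in turn, the 4-library test called 0 to 22 members lower and 0 to 12 higher, and 0 to 92 other mitosis genes lower and 0 to 29 higher, and the members' median ranged from -0.50 to -0.25; the lone library of a group is then assumed to vary like the other group's. With a library left out, the share of all genes called is not given here. These counts can therefore not be set beside it, and no conclusion is drawn from them. The labels do not say what libraries of the same replicate number share. The replicate 1 libraries' deviations from their group means correlated at -0.0977 across genes. With so few libraries this does not tell whether they were paired. In a fit with a replicate block 0 members passed, with a median of -0.27. The wider spread of the 4-library fit left 0 calls in the other comparisons except 2 other mitosis genes lower in replicate 2. For shGOLM1 replicate 1 the members' median was -0.48 with DESeq2 or RLE size factors, -0.50 with a minimum of 5 CPM, -0.36 with library totals, -0.53 with no filter and -0.49 to -0.47 with 1 or the other shscramble library left out. For replicate 2 it was -0.17, -0.17, -0.0825, -0.53, -0.31 and -0.21 to -0.17 under the same settings, and between the shGOLM1 libraries 0.48, 0.48, 0.45, 0.0007, 0.39 and, with 1 or the other shscramble library left out, 0.43 to 0.44. Members higher in replicate 1 numbered 2 with a minimum of 5 CPM and 3 with library totals; other mitosis genes higher there numbered 2 with DESeq2, 2 with no filter and 9 with library totals. With library totals 18 other mitosis genes were higher in replicate 2, and between the shGOLM1 libraries 35 others were higher and 11 members were lower and 9 higher. DESeq2 called 4 members lower there. Shares of all genes called under these settings are not given here. Over 4 libraries, leaving out each library in turn gave log2 fold changes of both signs, mostly with the shGOLM1 libraries at the ends: CDK1 -0.63 to 0.96, AURKB -0.83 to 0.25, MAD2L1 -0.65 to 0.58, UBE2C -1.34 to 0.12, CENPF -0.91 to 0.27, KIF2C -0.39 to 1.22, NUSAP1 -0.27 to 1.29, TOP2A -0.19 to 0.22 and MKI67 -0.58 to 0.35. MAD2L1 was -0.05 with library totals, -0.0106 with limma-voom and -0.0035 with the replicate block, TOP2A -0.0616 with library totals and -0.0196 with no filter, and MKI67 0.10 with a minimum of 5 CPM. In replicate 2 AURKB was -0.0255 and TOP2A -0.0612 with library totals, and CDC20 0.0712 with a minimum of 5 CPM. Between the shGOLM1 libraries CDC20 was -0.13, KIF23 -0.27 and CIT -0.41 with library totals, and CIT -0.0242 with no filter. The cause was not tested. Of the single-gene values with a test under an alternative, 728 kept direction and side of the threshold, 83 lost and 56 gained it, and 25 turned. With a shscramble library left out, the separate-level fit has no residual degrees of freedom, so its values have no test and are not counted here.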

Other observations

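Of 16 listed regulators of mitotic transcription, 6 were lower and 4 higher in shGOLM1 replicate 2 than in replicate 1, that is 37.5% and 25%, beside 33.1% and 30% of all genes. The 4 named here were chosen after their values were seen and do not stand for the list. None of the genes that were higher in replicate 2 is among them. Over the 16, the log2 differences between the shGOLM1 libraries ran from -2.15 to 2.09. FOXM1, an activator of late cell cycle genes, had 83.1 and 23.2 CPM in shGOLM1, against 88.6 and 97.7 CPM in shscramble. TFDP1, the dimerization partner of E2F factors, was at 273.5 and 76.9 CPM in shGOLM1, against 381 and 369 CPM in shscramble. RBL1, the pocket protein p107, was at 28.9 and 6.49 CPM in shGOLM1, against 33.4 and 33.4 CPM in shscramble. MYBL2, the B-Myb subunit of MYB-MuvB, was at 487 and 410 CPM in shGOLM1, against 597 and 563 CPM in shscramble. FOXM1, TFDP1 and RBL1 were lower in shGOLM1 replicate 2 than in replicate 1 (log2 differences of -1.84, -1.83 and -2.15, adjusted p of 4.5e-07 or less in edgeR), and MYBL2 did not pass there (-0.25, adjusted p = 0.108). None of the 4 passed over 4 libraries in edgeR (adjusted p of 0.536 to 0.633).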
